A study of Mus musculus with 10 samples.

Results

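Hematopoietic stem cells (HSCs), the blood-forming stem cells of bone marrow, spend most of their life outside the cell cycle, and 9 genes linked to that resting state are described here. They were chosen by name: the transcription factors Foxo1 and Foxo3, the antiproliferative genes Btg1, Btg2 and Tob1, the nuclear receptors Nr4a1 and Nr4a2, the pocket protein gene Rbl2 and the polo-like kinase gene Plk2. These genes and the gene lists below were chosen with earlier results of these data known. Shares called among them are therefore descriptions. All 9 are among the 20270 genes of the deposited table and all 9 passed the filter on low values that left 15143 genes for testing. The 10 RNA-seq libraries hold FACS-purified HSCs of C57BL/6 mice that had been transplanted with lineage-negative marrow cells of genotype Id1-/- (labelled KO) or Id1+/+ (labelled WT). Each genotype is present as normal HSCs (3 libraries, A, B and C) and as stressed HSCs (2 libraries, A and B). Every group is a post-transplant group, sampled 4 weeks after bone marrow transplantation by the sample labels and 6 weeks after it by the series design, so none shows HSCs of an untransplanted mouse. What normal and stressed mean is not stated, and neither is whether replicates come from separate animals, so the p-values below measure the spread between these libraries, which may be technical.

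FOXO proteins are transcription factors that growth factor signalling through PI3K and AKT keeps out of the nucleus. In HSCs they are known for sustaining antioxidant and cell cycle inhibitor genes, and loss of FOXO factors exhausts the stem cell pool. BTG and TOB proteins slow proliferation, in part by bringing the CCR4-NOT deadenylase to messenger RNAs. NR4A receptors are immediate early genes that act without a known natural ligand and restrain HSC proliferation. Rbl2 encodes a relative of the retinoblastoma protein that assembles with E2F4 and the MuvB core into the DREAM complex, which represses cell cycle genes in resting cells. Plk2 encodes a kinase of the polo-like family that is induced early in the cell cycle and by p53, unlike the mitotic kinase Plk1.

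Estimated depth was 25700000 to 33000000 reads per library, so that a level of 1 in CPM (reads of a gene scaled to a common library total) stood for an estimated 25.7 to 33.0 reads. On that scale the 9 genes had an estimated 102 reads (the lowest Plk2 library) to 5812 reads (the highest Rbl2 library). The values had been quantile normalized before deposit, so these estimates are not counted reads. Id1, the targeted gene, was higher in the KO-labelled than in the WT-labelled libraries (log2 CPM 3.08 to 3.72 against 0.36 to 2.13). Which bases of Id1 are deleted is not given in the sources used here, so each direction between genotypes below is between libraries as labelled. Markers of HSCs were present in all groups (12 of 12 in the table), with a summed level of 4148 to 5147 CPM in normal and 3592 to 3995 CPM in stressed libraries. The 6 megakaryocyte markers summed to 781 to 918 CPM in normal and 1294 to 1385 CPM in stressed libraries. B and plasma cell markers (8 of 10 in the table, with Ms4a1 and Pax5 not in it and Mzb1 under 1 CPM in every library) summed to 203 to 205 CPM in the KO-labelled stressed libraries and 40.2 to 54.7 CPM in all others. In bulk RNA, fewer cells of a type and less RNA per cell cannot be told apart. In a principal component analysis, WT-labelled stressed library A (-83.05 on the second component, against -20.26 for library B) and KO-labelled normal library A (-100.04 on the third) stood apart from their groups, and results that move without them are given both ways.

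The promoter windows of the 9 genes were searched on both strands for motifs of cAMP, immediate early, forkhead, nuclear receptor and cell cycle factors. A window runs from 250 bases before to 50 bases after the RefSeq start on GRCm38.p6, and all 9 genes matched 1 window each. The sequences printed here are those of Plk2, the gene of the 9 whose level differed most between conditions, Btg2, the other holder of a full cAMP response element, and Nr4a1 and Nr4a2, which hold the most copies of its core. Each line gives the 250 bases upstream of the start, 5′ to 3′ on the gene's strand, with every copy of the core TGACG or its reverse complement CGTCA in capitals.
Plk2, chr13:110394794-110395043, plus strand: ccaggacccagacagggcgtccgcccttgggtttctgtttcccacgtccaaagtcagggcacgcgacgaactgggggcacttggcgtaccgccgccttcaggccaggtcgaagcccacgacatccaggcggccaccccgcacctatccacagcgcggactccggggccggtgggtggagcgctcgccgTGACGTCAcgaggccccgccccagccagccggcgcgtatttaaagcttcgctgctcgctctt
Btg2, chr1:134079156-134079405, minus strand: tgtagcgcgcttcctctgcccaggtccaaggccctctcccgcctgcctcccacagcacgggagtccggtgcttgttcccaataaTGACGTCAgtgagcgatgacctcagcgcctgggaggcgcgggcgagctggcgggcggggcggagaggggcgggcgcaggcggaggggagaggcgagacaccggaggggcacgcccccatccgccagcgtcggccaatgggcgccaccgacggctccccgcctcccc
Nr4a1, chr15:101266596-101266845, plus strand: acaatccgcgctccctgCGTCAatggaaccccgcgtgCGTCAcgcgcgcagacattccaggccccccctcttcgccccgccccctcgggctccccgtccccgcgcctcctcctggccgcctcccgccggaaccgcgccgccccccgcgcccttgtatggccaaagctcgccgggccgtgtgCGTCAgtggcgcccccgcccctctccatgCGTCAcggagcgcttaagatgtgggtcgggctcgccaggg
Nr4a2, chr2:57124004-57124253, minus strand: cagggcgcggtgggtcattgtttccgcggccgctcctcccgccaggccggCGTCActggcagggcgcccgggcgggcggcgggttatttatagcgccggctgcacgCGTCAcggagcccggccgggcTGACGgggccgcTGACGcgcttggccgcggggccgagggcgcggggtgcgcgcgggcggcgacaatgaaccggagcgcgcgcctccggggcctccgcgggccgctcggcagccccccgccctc

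The full cAMP response element TGACGTCA, which contains the core on both strands, was found in 2 of the 9 windows, Plk2 at position -62 and Btg2 at -166, against 1.79% of all 32851 promoter windows. The core, with or without the full element, was found in 8 of the 9 windows (all but Foxo1), against 20.8% of all windows, and Nr4a1 and Nr4a2 held 4 copies each. These windows are rich in G and C (50.7% in Rbl2 to 81.7% in Nr4a2), and a match is a description of letters, not a bound site. The EGR motif GCGNGGGCG was present in 4 windows, those of Foxo3, Btg2, Nr4a1 and Nr4a2, against 5.55% of all. Of the motifs tied to the proteins encoded here, the forkhead element TGTTTAC matched only the Btg1 window (position -204, 3.65% of all windows) and the CHR element TTTGAA, a DREAM motif, only the Rbl2 window (position -201, 17.9% of all). The NR4A motif AAAGGTCA (1.51% of all windows), the AP-1 motif TGANTCA (7.81%) and the E2A-type E-box CAGCTG (16.3%) matched none of the 9. The general E-box CANNTG, which contains CAGCTG, matched 2 (Foxo1 and Plk2) against 72.3% of all.

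**Figure D1:**
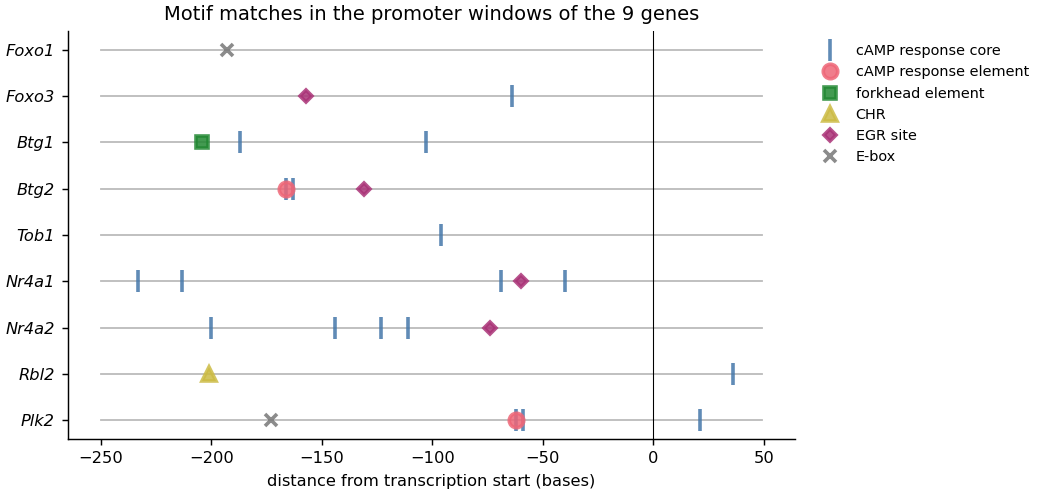
Motif matches in the promoter windows of the 9 genes, by distance in bases from the RefSeq start (0, vertical line). Blue ticks are the cAMP response core, which falls in 8 of 9 windows, and the pink circles on Plk2 and Btg2 are the full element.

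The 9 genes spanned a wide range of abundance in HSCs. Per kilobase of exon, Rbl2 was the most abundant, with a geometric mean of 21.8 CPM per kb over the 10 libraries, and it was above Tob1 (10.04 CPM per kb), the next gene, in 10 of 10 libraries. Tob1 and Btg2 (9.65 CPM per kb) could not be ordered, since Tob1 was the higher in 5 of 10 libraries. Btg1 followed at 7.66 CPM per kb and was below Btg2 in 8 of 10 libraries. Foxo1 (4.49 CPM per kb) and Foxo3 (4.00 CPM per kb) formed the next level, with Foxo1 the higher in 7 of 10 libraries and Foxo3 above Nr4a1 in 10 of 10. Nr4a1 (2.85 CPM per kb), Nr4a2 (2.44 CPM per kb) and Plk2 (2.33 CPM per kb) had the lowest means over the 10 libraries, and Nr4a2 exceeded Plk2 in 4 of 10 libraries, those of the stressed groups. By group, Plk2 was at 3.67 and 3.96 CPM per kb in WT-labelled and KO-labelled normal libraries, above Nr4a2 (2.61 and 2.26), and at 0.885 and 1.39 CPM per kb in the stressed ones, the lowest of the 9. The pooled SD within groups ran from 0.08 (Rbl2) to 0.36 (Nr4a1) in log2 CPM. The median over 5604 genes with a mean log2 CPM of 3 to 6 was 0.21. Rbl2, with a mean of 7.36, lies above that band, so this median is no reference for it.

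**Figure D2:**
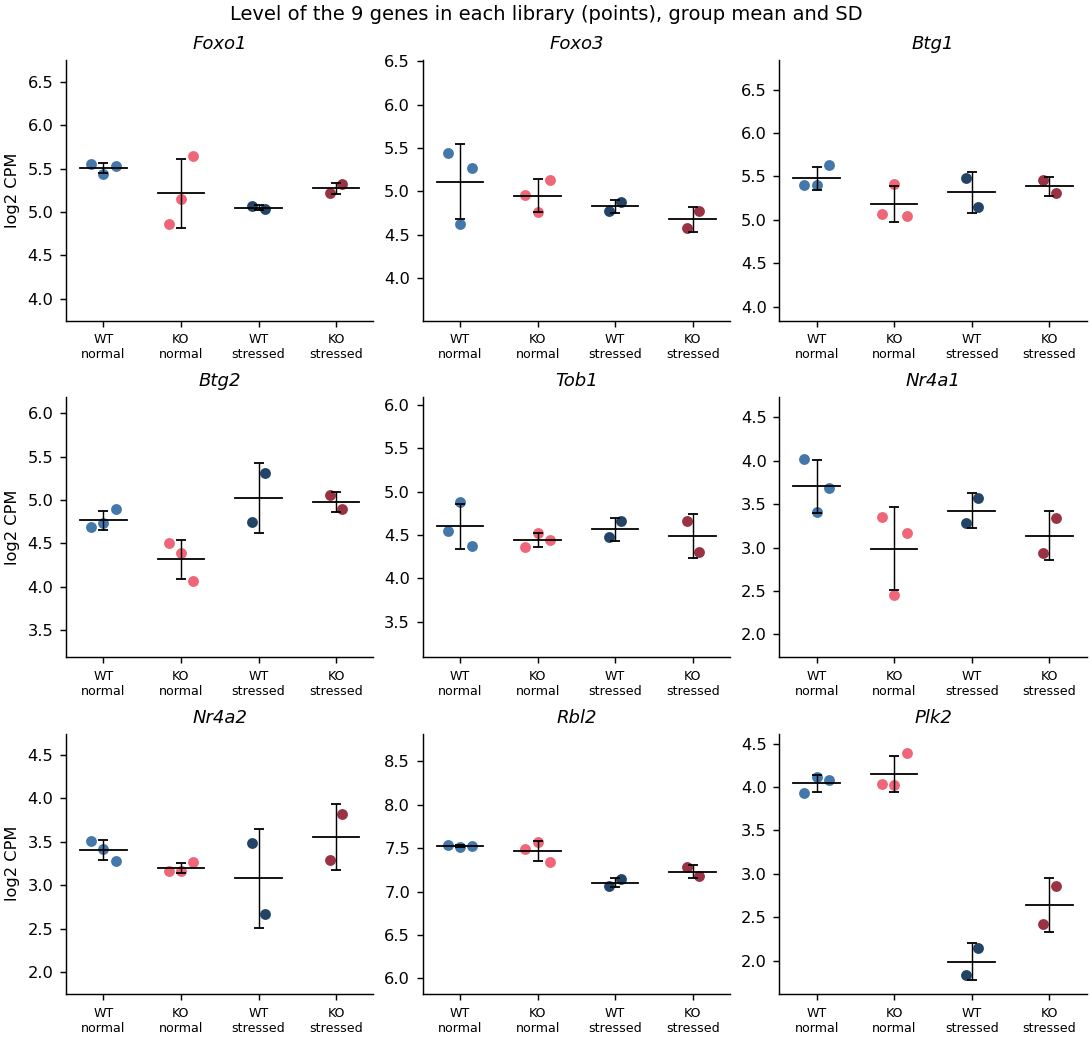
Level of each of the 9 genes (log2 CPM, each panel with its own origin and the same span) in the 4 groups as labelled. Points are libraries, horizontal lines group means and error bars 1 SD (n = 3 normal, n = 2 stressed). Plk2 is the gene with the widest gap, with all 4 stressed libraries at or below 2.86 and all 6 normal libraries at or above 3.93.

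Plk2 showed the largest difference of the 9 genes. Its log2 CPM was 3.93, 4.11 and 4.08 in the WT-labelled normal libraries and 4.04, 4.03 and 4.39 in the KO-labelled normal libraries. It was 1.84 and 2.14 in the WT-labelled stressed libraries and 2.42 and 2.86 in the KO-labelled stressed libraries. Every stressed library was thus below every normal library, while the 2 genotypes overlapped in normal HSCs and did not overlap in stressed HSCs. In CPM the normal libraries held 15.3 to 21.04 and the stressed libraries 3.58 to 7.26. Plk2 (chr13:110395046-110400844, plus strand, mm10) was 4.15-fold lower in stressed than in normal WT-labelled HSCs (log2 difference -2.05, SE 0.23, 95% interval -2.56 to -1.54, limma adjusted p = 7.3e-04). In KO-labelled HSCs it was 2.86-fold lower (-1.51, SE 0.23, 95% interval -2.02 to -1.01, limma adjusted p = 0.0037). The mean of both genotypes gave a 3.44-fold fall (-1.78, SE 0.16, limma adjusted p = 5.6e-05). The stressed KO-labelled libraries exceeded the stressed WT-labelled ones by 0.65 (SE 0.25), which did not pass (limma adjusted p = 0.50) and ranged from 0.43 to 0.87 when single libraries were left out. Averaged over both conditions the KO-labelled excess was 0.38 (SE 0.16, limma adjusted p = 0.35). Leaving out both libraries that stand apart gave -1.90 in WT-labelled and -1.57 in KO-labelled HSCs (limma adjusted p = 0.0097 and 0.0087).

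The other polo-like kinase genes rose or were not called where Plk2 fell. Plk1, the mitotic kinase, was higher in stressed HSCs, with a log2 difference of 1.62 (SE 0.20) for WT-labelled and 1.30 (SE 0.20) for KO-labelled libraries (limma adjusted p = 0.0015 and 0.0039). Its level was 16.1 to 28.4 CPM in the 6 normal libraries and 56.2 to 64.6 CPM in the 4 stressed libraries, with no overlap. Plk4, which controls centriole duplication, was higher by 0.54 (SE 0.12, limma adjusted p = 0.029) and 0.70 (SE 0.12, limma adjusted p = 0.0060) in the same contrasts. Plk3 was at 3.04 to 9.03 CPM in normal and 3.10 to 6.41 CPM in stressed libraries, which overlap, and it was not called in any contrast. Of the 4 family members, 2 therefore rose, 1 fell and 1 was not called in each genotype. Of all genes, 3.30% were called in WT-labelled and 4.50% in KO-labelled HSCs.

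**Figure D3:**
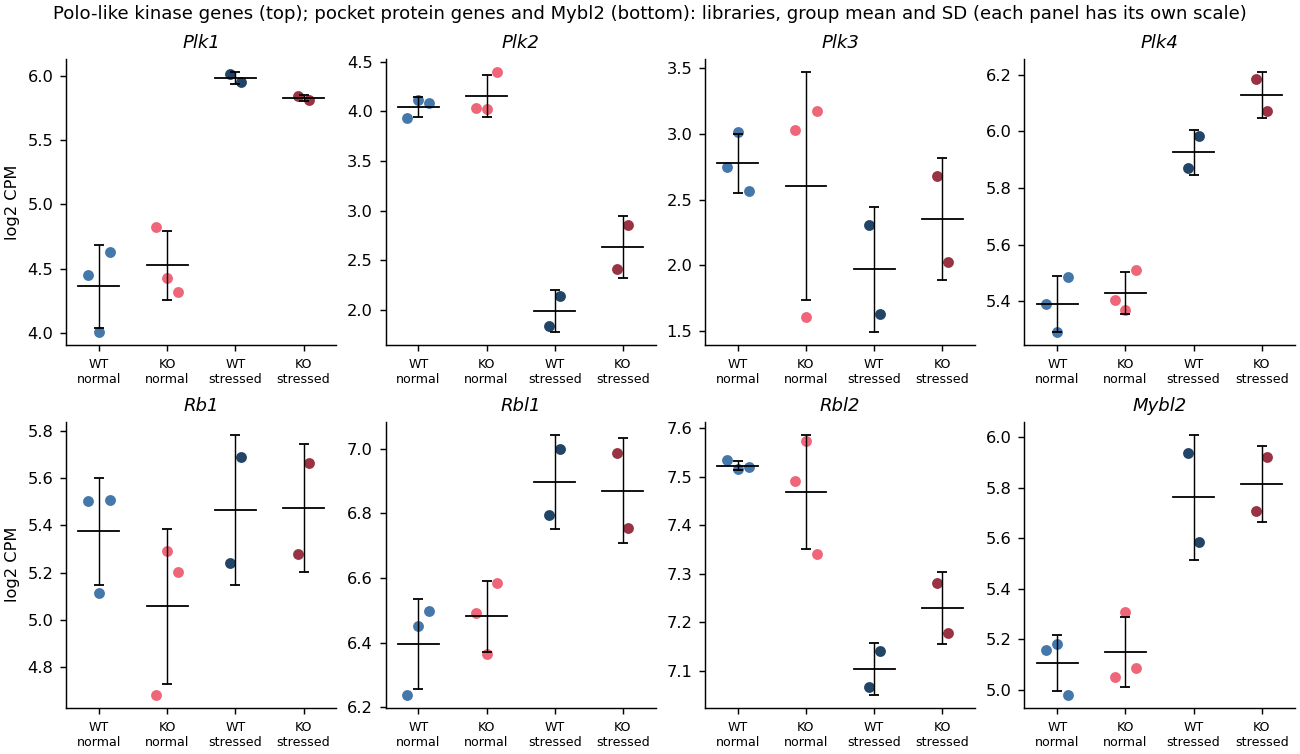
Polo-like kinase genes (top row) and the 3 pocket protein genes with Mybl2 (bottom row), in log2 CPM with a separate scale for each panel. Points are libraries, lines group means and error bars 1 SD. Plk1 and Plk4 sit higher and Plk2 lower in all 4 stressed libraries than in all 6 normal ones, and Rbl2 sits lower where Rbl1 and Mybl2 sit higher.

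Rbl2 was the other gene of the 9 to pass the test, with a small fall and a small spread within groups. Quantile normalization can shrink the spread of abundant genes, and its part in the spread of Rbl2 was not tested. The log2 CPM of Rbl2 was 7.53, 7.52 and 7.52 in WT-labelled normal libraries and 7.49, 7.57 and 7.34 in KO-labelled normal libraries. It was 7.07 and 7.14 in WT-labelled stressed libraries and 7.28 and 7.18 in KO-labelled stressed libraries. All 4 stressed libraries lay below all 6 normal ones, with the WT-labelled stressed pair the lowest. Rbl2 (chr8:91070057-91123844, plus strand, mm10) was 1.34-fold lower in stressed WT-labelled HSCs (-0.42, SE 0.08, limma adjusted p = 0.018). The KO-labelled difference was -0.24 (SE 0.08), which did not pass (limma adjusted p = 0.14). Averaged over both genotypes Rbl2 was 1.26-fold lower (-0.33, SE 0.06, limma adjusted p = 0.0048), and 19 of 19 alternatives to this averaged contrast kept that call. The WT-labelled call was lost when any 1 of the 5 WT-labelled libraries was left out (adjusted p 0.059 to 0.12), and with both libraries that stand apart left out the difference was -0.38 (limma adjusted p = 0.11). Exons of Rbl2 share 693 bases with Aktip on the opposite strand and 892 with Gm45464, so reads there cannot be assigned without strand. Aktip was lower in stressed HSCs by a mean of 0.19 (difference -0.19, SE 0.12) and was not called (limma adjusted p = 0.38).

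Neither of the other pocket protein genes was called lower. Rbl1, which encodes a close relative that predominates in cycling cells, was higher in stressed WT-labelled HSCs by 0.50 (SE 0.12, limma adjusted p = 0.046), and the KO-labelled difference was 0.39 (SE 0.12, limma adjusted p = 0.10). Rb1, the retinoblastoma gene, was at 25.7 to 45.5 CPM in normal and 37.8 to 51.6 CPM in stressed libraries and was not called. Mybl2, whose product binds the MuvB core in dividing cells, rose by 0.66 (SE 0.15) where the label was WT and by 0.67 (SE 0.15) where it was KO, with limma adjusted p = 0.039 and 0.030. Of the 15 genes listed for DREAM and the pocket proteins, 2 were called higher and 1 lower (Rbl2) in WT-labelled stressed HSCs, and 3 higher and 0 lower in KO-labelled ones, against 3.30% and 4.50% of all genes called. Foxm1 (1.02, SE 0.16, limma adjusted p = 0.0050) and Tfdp1 (0.41, SE 0.09, limma adjusted p = 0.025) joined Mybl2 there, encoding a mitotic transcription factor and the E2F partner. The median difference over the 15 was 0.10 in each genotype, against 0.01 and 0.00 over all genes.

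Of 27 proliferation genes that DREAM is known to repress, 12 were called higher and 0 lower in stressed WT-labelled HSCs (median difference 0.54), where 3.30% of all genes were called. In KO-labelled HSCs 19 were called higher and 0 lower (median 0.81), where 4.50% of all genes were called. Top2a, the replication and mitosis topoisomerase, was 0.92 higher in WT-labelled and 0.91 higher in KO-labelled HSCs (SE 0.10 for both, with limma adjusted p = 5.8e-04 and 4.3e-04). Aurkb, a mitotic kinase, was 1.18 and 1.40 higher (SE 0.14 each, limma adjusted p = 8.9e-04 and 1.9e-04). Averaged over both genotypes 20 of the 27 were called higher, against 8.29% of all genes called. A difference above 0 was found for 27 of 27, with a median of 0.68 against 0.00 over all genes. Between genotypes limma called none of the 27 in normal or in stressed HSCs, against 1.56% and 0.145% of all genes. An unadjusted limma p under 0.05 was found for 9 and 5 of the 27, against 13.9% and 8.88% of all genes. The summed HSC and megakaryocyte marker levels moved with condition as well. So did those of T and NK cells (58.8 to 68.3 CPM in normal and 98.1 to 121 CPM in stressed libraries, with 3 of 8 markers in the table and Cd3d, Cd3e, Cd3g, Trac and Gzma not in it), erythroid cells (243 to 273 against 159 to 220 CPM) and multipotent and lymphoid progenitors (419 to 449 against 496 to 558 CPM, with Il7r under 1 CPM throughout). The T and NK sum was mostly Nkg7 (52.2 to 65.4 CPM in normal and 95.6 to 117.5 CPM in stressed libraries). Cd2 stayed under 1 CPM and Klrb1c did not rise. Car1 (118.4 to 152.5 against 51.6 to 86.6 CPM) led the erythroid fall, while Epor and Tfrc did not fall. Cd34 (342.5 to 382.5 against 414.6 to 457.1 CPM) led the progenitor rise, joined by Cd48, while Satb1 did not rise. The part of cell composition in the Rbl2 and Plk2 differences was not tested.

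Neither FOXO gene passed the test in any contrast. Foxo1 (chr3:52268336-52353221, plus strand) was at log2 CPM 5.55, 5.44 and 5.53 in WT-labelled normal and 4.86, 5.15 and 5.64 in KO-labelled normal libraries. It was at 5.07 and 5.03 in WT-labelled stressed and 5.22 and 5.32 in KO-labelled stressed libraries. The WT-labelled stressed pair lay below all WT-labelled normal libraries, whereas the KO-labelled normal libraries spread over both conditions, from the lowest to the highest of all 10. The difference of stressed against normal WT-labelled HSCs was -0.46 (SE 0.19) and did not pass (limma adjusted p = 0.25). Foxo3 (chr10:42181841-42276755, minus strand), the main FOXO gene studied in HSC maintenance, was at 5.45, 4.62 and 5.27 in WT-labelled normal and 4.96, 4.76 and 5.13 in KO-labelled normal libraries. In stressed libraries it was at 4.77 and 4.88 (WT-labelled) and 4.58 and 4.78 (KO-labelled). Groups of Foxo3 overlapped in each of the 4 contrasts between groups, and library B of both normal groups lay below 3 of the 4 stressed libraries. Foxo4 and Foxo6 were in the table but too low to be tested.

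Genes around FOXO moved in small numbers. Of 19 tested genes of the PI3K and AKT pathway, 0 were called by limma in stressed WT-labelled HSCs, against 3.30% of all genes called. An unadjusted limma p under 0.05 was found there for 4 of the 19, against 16.8% of all genes. In stressed KO-labelled HSCs 1 was called higher, Ywhaz (0.23, SE 0.05, limma adjusted p = 0.029), which encodes a 14-3-3 protein of the kind that retains FOXO in the cytoplasm. The 1 called lower was Pik3cd, a catalytic subunit of PI3K (-0.33, SE 0.08, limma adjusted p = 0.045), where 4.50% of all genes were called. Averaged over both genotypes 1 of the 19 was called lower and 0 higher, against 8.29% of all genes called. That gene was Pik3r1 (-0.40, SE 0.08, limma adjusted p = 0.014), with differences of -0.45 in WT-labelled and -0.34 in KO-labelled HSCs. Of 21 tested FOXO target genes, a list that includes Rbl2 and Plk2, 2 were called lower in WT-labelled stressed HSCs, Rbl2 and Plk2 themselves. In KO-labelled ones 3 were called lower. Over all genes, 1.75% and 2.28% were called lower in these contrasts. Besides Plk2, the KO-labelled falls were Txnip, a thioredoxin inhibitor (-0.31, SE 0.04, limma adjusted p = 0.0016), and the CDK inhibitor gene Cdkn1b (-0.80, SE 0.20, limma adjusted p = 0.048). In WT-labelled HSCs the Cdkn1b difference had the other sign, 0.59 (SE 0.20), and was not called (limma adjusted p = 0.15). Its interaction was -1.39 (SE 0.28) and was not called either (limma adjusted p = 0.18). Txnip was also lower in KO-labelled than in WT-labelled stressed HSCs (-0.38, SE 0.05, limma adjusted p = 0.0067), the only FOXO target called between genotypes within a condition. In that contrast 0.145% of all genes were called. List medians stayed small, at 0.03 and -0.11 in WT-labelled and KO-labelled HSCs, against 0.01 and 0.00 over all genes.

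Among the BTG and TOB genes, Btg2 varied most between groups and Tob1 least. Btg2 (chr1:134075170-134079120, minus strand) is a p53 and immediate early target. Its log2 CPM was 4.68, 4.73 and 4.89 in WT-labelled normal and 4.50, 4.38 and 4.06 in KO-labelled normal libraries, and the KO-labelled libraries lay below all WT-labelled ones. In stressed HSCs it was 4.74 and 5.31 in WT-labelled and 5.06 and 4.90 in KO-labelled libraries, which overlap. The KO-labelled deficit in normal HSCs was -0.45 (SE 0.18) and did not pass (limma adjusted p = 0.28). The KO-labelled stressed libraries were both above all KO-labelled normal ones, by 0.66 on average (SE 0.20, limma adjusted p = 0.096). Averaged over both genotypes Btg2 was 0.46 higher in stressed HSCs (SE 0.14, limma adjusted p = 0.071). Without WT-labelled stressed library A that mean difference was 0.60 and passed (limma adjusted p = 0.028), and without library B, the higher of the pair, it was 0.32 (limma adjusted p = 0.23). With both libraries that stand apart left out, the mean difference was 0.65 (limma adjusted p = 0.020) and the KO-labelled difference 0.75 (limma adjusted p = 0.046).

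Btg1 (chr10:96617006-96622809, plus strand) was at log2 CPM 5.40, 5.40 and 5.63 in WT-labelled normal and 5.07, 5.42 and 5.04 in KO-labelled normal libraries. In stressed libraries it was at 5.48 and 5.14 (WT-labelled) and 5.46 and 5.31 (KO-labelled). Btg1, like Btg2, had its lowest group mean in KO-labelled normal HSCs, but its groups overlapped in each of the 4 contrasts. Tob1 (chr11:94211454-94215495, plus strand) was at 4.54, 4.88 and 4.37 in WT-labelled normal, 4.36, 4.53 and 4.44 in KO-labelled normal, 4.47 and 4.66 in WT-labelled stressed and 4.67 and 4.30 in KO-labelled stressed libraries. All 4 Tob1 group means lay within 0.15 of each other, the narrowest range of the 9 genes. Btg3 and Tob2, the other tested relatives, were called in no contrast, and Btg4 was too low to be tested. Of 14 CCR4-NOT and associated deadenylation genes, 1 had an unadjusted p under 0.05 in stressed WT-labelled HSCs, against 16.8% of all genes. Limma called 0 of the 14 there, against 3.30% of all genes. In stressed KO-labelled HSCs it called 1 higher, against 4.50% of all genes called. That gene was Pan2, a poly(A) nuclease subunit (0.44, SE 0.11, limma adjusted p = 0.045). Averaged over both genotypes 1 of the 14 was called higher and 0 lower, against 8.29% of all genes called. It was Cnot6 (0.31, SE 0.08, limma adjusted p = 0.035).

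Neither NR4A gene passed the test, and their lowest group means fell in different groups. Nr4a1 (chr15:101254269-101274795, plus strand) was at log2 CPM 4.02, 3.41 and 3.69 in WT-labelled normal libraries and 3.35, 2.45 and 3.16 in KO-labelled normal libraries. The KO-labelled libraries were all below the WT-labelled ones, with library B, at 5.47 CPM, the lowest of the 10. The difference was -0.72 (SE 0.27) and did not pass (limma adjusted p = 0.27), and leaving out single libraries gave -0.90 to -0.45. In stressed HSCs Nr4a1 was at 3.28 and 3.57 (WT-labelled) and 2.94 and 3.34 (KO-labelled), overlapping each other and the normal libraries. Averaged over both conditions the KO-labelled difference was -0.50 (SE 0.22, limma adjusted p = 0.35). Nr4a2 (chr2:57106830-57124003, minus strand) was at 3.51, 3.42 and 3.28 in WT-labelled normal and 3.16, 3.17 and 3.27 in KO-labelled normal libraries, just short of overlapping. It was at 3.49 and 2.67 in WT-labelled stressed and 3.29 and 3.82 in KO-labelled stressed libraries. The WT-labelled stressed pair differed from each other by more than any 2 group means of Nr4a2. Nr4a3 was too low to be tested.

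Other immediate early genes, induced like the NR4A genes within minutes of a stimulus, included some that passed the test. Fos, a subunit of AP-1, was at 26.5 to 29.5 CPM in WT-labelled normal and 6.04 to 9.62 CPM in KO-labelled normal libraries. That difference, -1.77 (SE 0.20, limma adjusted p = 0.0013), made Fos the 1 gene called of 16 tested between genotypes in normal HSCs, where 1.56% of all genes were called. In stressed HSCs Fos was at 8.63 to 9.75 CPM in WT-labelled and 14.8 to 15.3 CPM in KO-labelled libraries, a difference that was not called (0.71, SE 0.25, limma adjusted p = 0.43). The interaction passed (2.49, SE 0.32, limma adjusted p = 0.036). In stressed WT-labelled HSCs 3 of the 16 were lower, against 1.75% of all genes called lower. They were Fos, Egr1 (-1.40, SE 0.14, limma adjusted p = 3.4e-04) and Junb (-0.59, SE 0.12, limma adjusted p = 0.025). In stressed KO-labelled HSCs Egr1 (-0.64, SE 0.14, limma adjusted p = 0.024) and Junb (-0.50, SE 0.12, limma adjusted p = 0.044) were lower. Fos (0.90, SE 0.22, limma adjusted p = 0.045) and Jun (1.03, SE 0.13, limma adjusted p = 9.1e-04) were higher there. In that contrast 4.50% of all genes were called. Neither NR4A gene was called in these contrasts, and whether they differ from Fos was not tested.

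Between genotypes, none of the 9 genes passed the test. In normal HSCs limma called 0 of 9, against 1.56% of all genes tested. Of the 9, 2 had an unadjusted limma p under 0.05, against 13.9% of all genes. Btg2, Nr4a1 and Nr4a2 were lower in every KO-labelled than in every WT-labelled normal library, 3 of 9 genes against 19.5% of all genes whose groups did not overlap. Granulocyte and monocyte markers (10 of 10 in the table) summed to 433 to 478 CPM in the KO-labelled and 341 to 381 CPM in the WT-labelled normal libraries, and HSC markers to 4148 to 4414 against 4845 to 5147 CPM, and their part in these differences was not tested. In all, 8 of the 9 had a mean below that of WT-labelled normal HSCs, with a median difference of -0.20 against -0.01 over all genes. The 7 genes other than Btg2 and Nr4a1 had differences from -0.30 to 0.11. In stressed HSCs limma called 0 of 9, against 0.145% of all genes, and 1 had an unadjusted p under 0.05, against 8.88%. Foxo1, Rbl2 and Plk2 did not overlap between genotypes there, each higher in the KO-labelled pair, 3 of 9 against 39.1% of all genes. The 8 genes other than Plk2 differed by -0.29 to 0.48. The summed B and plasma cell markers, given above, differed between these 2 groups as well, led by Igkc at 130 to 136 CPM in the KO-labelled stressed pair, and their part in these values was not tested. Averaged over both conditions limma called 0 of 9, against 1.07% of all genes, and 2 had an unadjusted p under 0.05, against 13.1%.

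Between conditions, the genes called in the model with all 10 libraries were Plk2 and Rbl2. In WT-labelled HSCs 2 of 9 were called, both lower, against 3.30% of all genes called and 1.75% called lower. Groups did not overlap for 3 of the 9 (Foxo1, Rbl2 and Plk2, all lower), against 36.4% of all genes. The 6 genes other than these 3 differed by -0.33 to 0.26. In KO-labelled HSCs 1 of 9, Plk2, was called lower, against 4.50% of all genes called and 2.28% called lower. Here 4 of 9 did not overlap, Btg2 and Nr4a2 higher and Rbl2 and Plk2 lower in stressed libraries, against 33.1% of all genes. The 6 genes other than Btg2, Rbl2 and Plk2 differed by -0.27 to 0.36. Averaged over both genotypes 2 of 9 were called, both lower, against 8.29% of all genes called and 4.36% called lower.

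**Figure D4:**
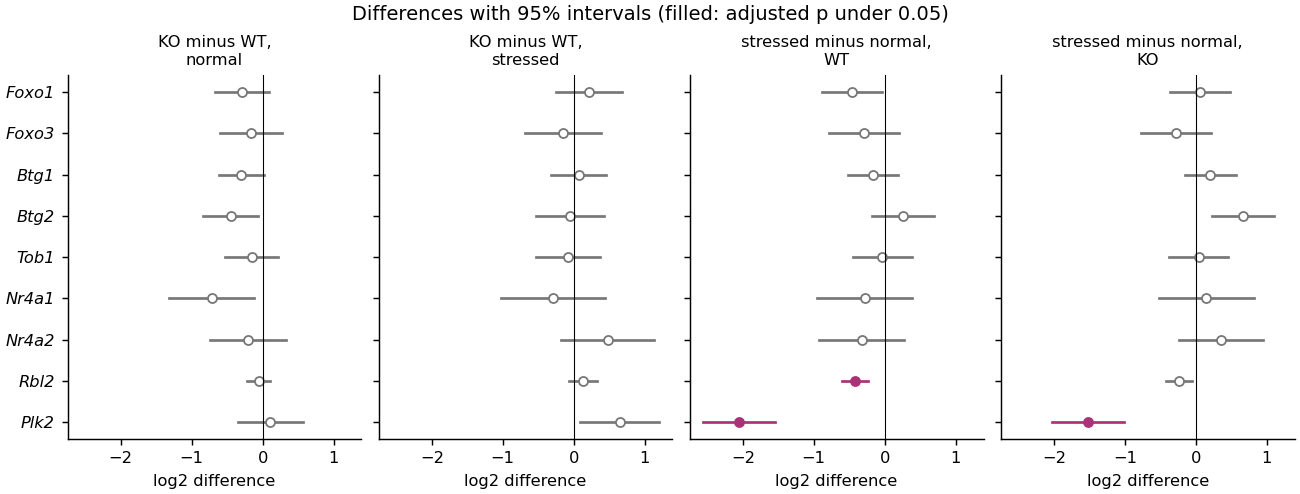
Log2 differences of the 9 genes in the 4 contrasts between groups, with 95% intervals from limma, and filled symbols where the adjusted p is under 0.05. The 3 filled symbols are Plk2 and Rbl2 in WT-labelled and Plk2 in KO-labelled HSCs, all to the left of 0.

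The interaction asks whether the difference between conditions itself differs between genotypes. Limma called 0 of the 9, against 0.0198% of all genes, and 0 of the 9 had an unadjusted p under 0.05, against 9.15% of all genes. All 9 estimates were above 0, from 0.01 to 0.68, with limma adjusted p from 0.59 to 0.99. Their median was 0.40, against -0.004 over all genes. The smaller fall of Plk2 in KO-labelled HSCs and the call of Rbl2 in WT-labelled HSCs alone are therefore not shown to differ between genotypes. These contrasts share the same 10 libraries, and so do the 9 genes within a contrast, so the signs are not independent of each other.

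Plk2 and Btg2 both belong to the p53 list. Of its 19 tested genes, 1 (Plk2) was called lower in stressed WT-labelled HSCs, and 2 (Plk2 and Ccng1) were called lower in KO-labelled ones, with 0 higher in either, against 1.75% and 2.28% of all genes called lower. Ccng1, a p53-induced cyclin, was lower in stressed KO-labelled HSCs by a difference of -0.49 (SE 0.10, limma adjusted p = 0.014). Rps27l, a p53-induced ribosomal protein relative, was higher in KO-labelled normal HSCs by 0.52 (SE 0.07, limma adjusted p = 0.0043), the 1 gene of the list called there, against 1.56% of all genes. Among 11 CDK inhibitor and G1 cyclin genes, Cdkn1c, the inhibitor most tied to HSC quiescence, was lower in stressed HSCs in both genotypes (-1.04 and -0.88, SE 0.17 each, limma adjusted p = 0.0076 and 0.014). Cdkn2c was higher in stressed WT-labelled HSCs (1.53, SE 0.27, limma adjusted p = 0.011). Ccnd2, a D-type cyclin, was called lower in KO-labelled stressed HSCs together with Cdkn1b and Cdkn1c (-0.28, SE 0.06, limma adjusted p = 0.017 for Ccnd2). Cdkn1b had the other sign in WT-labelled HSCs (0.59, SE 0.20) and was not called there (limma adjusted p = 0.15). Calls among the 11 were 1 higher and 1 lower in WT-labelled and 0 higher and 3 lower in KO-labelled HSCs. Of all genes, 3.30% and 4.50% were called.

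The profile of each gene over the 10 libraries was compared with 12300 named genes by Pearson's r, as a description in which the libraries share their normalization. The 3 genes most like Plk2 were Rras, a small GTPase (r = 0.98), Grb10, an imprinted adaptor of growth factor receptors (r = 0.98), and Meg3, an imprinted long noncoding RNA (r = 0.98). Meg3 was at 6.90 to 10.2 CPM in normal libraries and at 0.0167 to 0.295 CPM in stressed ones, the lowest of which is the value of a gene without reads. Rras was at 26.0 to 31.1 CPM in normal and 16.1 to 18.4 CPM in stressed libraries. Grb10 was at 199 to 229 CPM in normal and 129 to 147 CPM in stressed libraries. All 3 were called lower in stressed HSCs of both genotypes, with differences for Rras of -0.74 and -0.70 (SE 0.14 each, limma adjusted p = 0.018 in both).

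**Figure D5:**
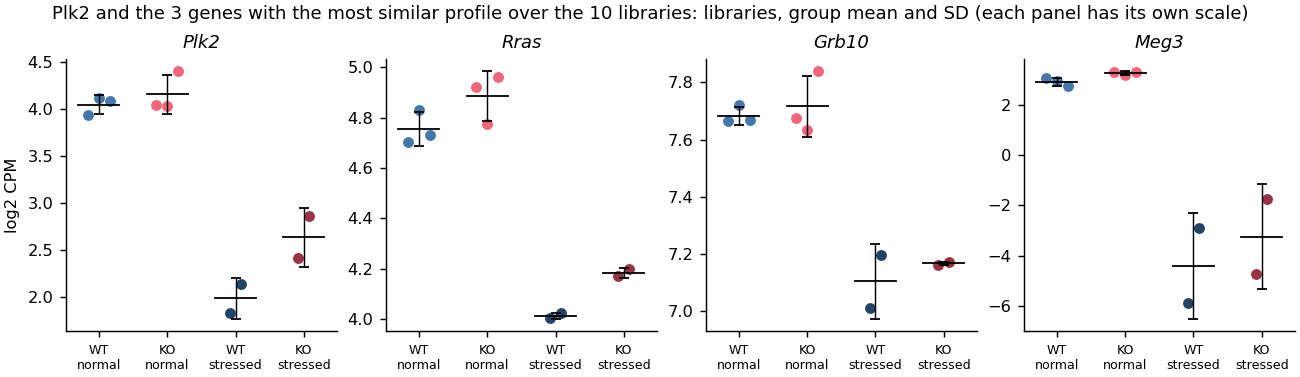
Plk2 and the 3 genes with the most similar profile, in log2 CPM with a separate scale for each panel. Points are libraries, lines group means and error bars 1 SD. In all 4 panels every stressed library lies below every normal library, and for Meg3 the 2 conditions lie furthest apart.

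Rbl2 was most like Fgfr3, a fibroblast growth factor receptor (r = 0.98), Ntf5 (r = 0.96) and Pou6f1 (r = 0.95). Ntf5 was at 1.13 to 3.59 CPM in normal and 0.0167 to 0.097 CPM in stressed libraries. The lowest of these is the value of a gene without reads. Fgfr3 was lower in stressed HSCs by a difference of -1.47 in WT-labelled (SE 0.20, limma adjusted p = 0.0029) and -0.89 in KO-labelled libraries (SE 0.20, limma adjusted p = 0.033). Profiles of the other 7 genes had weaker best matches, led by Stard8 for Nr4a1 (r = 0.94), Ugcg for Foxo1 (r = 0.93), Cep128 for Btg2 (r = 0.93) and Lca5l for Nr4a2 (r = 0.93). Lrrc74b led for Btg1 (r = 0.91), Pkp4 for Foxo3 (r = 0.91) and Igsf9 for Tob1 (r = 0.90). Lrrc74b and Lca5l were low, with geometric means of 0.348 and 0.70 CPM over the 10 libraries, so their r rests on few reads. Among the 9 themselves, Rbl2 and Plk2 had the highest r (0.88), and it was -0.63 after group means were removed. Foxo3 and Nr4a1 had r = 0.65 over the 10 libraries and 0.73 after group means were removed. No family pair (Foxo1 with Foxo3, the BTG and TOB genes, or Nr4a1 with Nr4a2) reached the r of Rbl2 with Plk2.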

How the data were processed

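Transcripts of FACS-sorted hematopoietic stem cells were measured by RNA-seq in 10 libraries. Per the submitters' processing notes, Bowtie2, featureCounts and the genome build mm10 were used, with no versions or settings named. The values as deposited by the authors are on a log2 CPM scale (reads of a gene scaled to a common library total). All libraries share nearly 1 distribution of values, so they had been quantile normalized before deposit, which can shrink the spread of abundant genes. The filter behind the 20270 genes and the strandedness of the counting are not given in the sources used here. Depth was estimated from ties among low values (steps of 10 to 100 reads).

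From the deposited log2 values, genes above 0 in at least 2 libraries were kept (15143). A linear model with 4 group means over all 10 libraries was fitted with limma 3.58.1 in R 4.3.3, with variances moderated along a mean trend and 6 residual degrees of freedom. P-values were adjusted by Benjamini-Hochberg over all 15143 genes, and an adjusted p under 0.05 counts as called. Intervals are 95% intervals of that model. Gene models come from GENCODE vM21 on the same build, which held 20199 of the 20270 identifiers. Promoter sequences come from RefSeq on GRCm38.p6. Plots were drawn in Python 3.11.15.

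The members and gene lists were chosen with earlier results of these data known. The naming rule gives every member's level in each library, and its difference with SE and adjusted p in each contrast where the unadjusted p is under 0.05, with the rest as a range. Of each list, up to 4 called genes by smallest p are named per contrast, or up to 2 with an unadjusted p under 0.05 where none is called. A call in the FOXO target list is not reported here. The alternatives, with leaving out both libraries that stand apart added after seeing the data, are reported with the closing observations.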

Additional observations from a re-analysis of the deposited data

How the results depend on the processing

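For the 9 genes, 20 alternatives were run per contrast (19 for the interaction and the averaged contrasts, where a fit of only the groups compared gives no value). No difference with an unadjusted p under 0.05 in its contrast changed sign, and the smaller differences were not followed over the alternatives. The count called between genotypes and in the interaction was 0 throughout. For stressed against normal WT-labelled HSCs it was 2, and 1 without the mean-variance trend (Rbl2 adjusted p = 0.086), 1 to 2 when single libraries were left out, and 1 with both libraries that stand apart left out. For KO-labelled HSCs it was 1, and 2 at an adjusted p under 0.1 and with both left out. For the average of both genotypes it was 2, and 3 without WT-labelled stressed library A, with both left out, and at 0.1. Plk2 stayed called in each stressed contrast under every alternative run (log2 differences -2.20 to -1.29).

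Counts over all genes moved more: 236 in the main model for genotype in normal HSCs (45 to 400 over the alternatives), 22 in stressed HSCs (0 to 56), 500 for condition in WT-labelled (253 to 872) and 682 in KO-labelled HSCs (249 to 1067), 3 for the interaction (1 to 26), 162 for genotype averaged (22 to 287) and 1256 for condition averaged (773 to 1891). No pairing by replicate letter was seen: the correlations of deviations of 13 same-letter pairs lay between -0.02 and 0.04, and 0 were over 0.1. Those of 24 other pairs lay between -0.04 and 0.04. In groups of 2 libraries the deviations mirror each other, so these pairs are not independent. Whether letters stand for a shared animal or batch cannot be told from them. With the letter as a replicate block the counts of the 9 genes called stayed 0, 0, 2, 1, 0, 0 and 2 in the order of contrasts above, and the counts over all genes were 181, 11, 289, 447, 2, 105 and 773. Where leaving out a stressed library leaves 1 in its group, the lone library is assumed to vary like the other groups. Plk2 rested on the fewest reads, an estimated 102 in its lowest library, and groups of 2 libraries limit what differences between stressed groups can be seen.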
